A study of Mus musculus with 4 samples.

Results

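Neutrophils were studied in the kidney of 19-month-old male C57BL/6 mice that had received BPTES, a glutaminase inhibitor, or its vehicle DMSO for 1 month. Single-cell RNA libraries were made from 2 samples of each treatment, and the labels name no genetic modification. Each library mixed 20000 CD45-negative with 9000 CD45-positive cells sorted from one dissociated kidney sample, so the mix, not the organ, set the ratio of leukocytes to tubule cells. The labels do not say whether the 2 samples of a treatment came from separate animals, so p-values measure the spread between these 4 samples, which may be technical. A barcode was kept with at least 500 UMIs (unique molecular identifiers, each standing for 1 captured RNA molecule), at least 300 genes and at most 50% mitochondrial UMIs. It was called a neutrophil when it held at least 20 UMIs of S100a8 and S100a9 together, at least 2 of Csf3r, Retnlg, Cxcr2 and Mmp9 together, at most 9 of C1qa, C1qb and C1qc, none of Cd3d, Cd3e, Cd3g or Cd79a, and at most 3 of Lrp2 and Slc34a1. The rule found 937 neutrophils among 50605 kept barcodes (1.85%). BPTES replicate 1 held 225 and BPTES replicate 2 held 212, against 236 in DMSO replicate 1 and 264 in DMSO replicate 2.

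Neutrophils are short-lived granulocytes that leave the bone marrow already filled with azurophil, specific and gelatinase granules, whose genes are transcribed in turn during maturation in the marrow and mostly silent in the mature cell. In tissue they sense bacterial products and chemokines through surface receptors, release interleukin 1 and chemokines under the control of NF-kB and hypoxia-induced factors, and die within days unless survival signals hold them. They run largely on glycolysis and also use glutamine, which glutaminase converts to glutamate, a precursor of glutathione and of mitochondrial intermediates.

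The summed neutrophils of a library held between 2747905 and 3372121 UMIs, and the median neutrophil held between 9113 and 9830.5 UMIs with 1.28% to 1.41% mitochondrial UMIs. No neutrophil barcode sequence was found in more than 1 library. Of the 937 neutrophils, 133 (14.2%) held more than 20000 UMIs, and these carried between 26.96% and 40.2% of the neutrophil UMIs of a library. DMSO replicate 2 stood apart from the other 3 libraries. Over the 3482 genes of higher level in neutrophils of up to 20000 UMIs, its median absolute log2 difference from the others was 0.39, 0.38 and 0.37, while the other 3 libraries differed from each other by 0.17 to 0.19. Fits without it are therefore given for many of the genes described below, as log2 fold changes. A fit without 1 library leaves 1 library in a treatment, so its spread comes from the other pair alone. Levels are CPM, the UMIs of a gene scaled to a fixed total of the summed neutrophil UMIs of a library, and the 4 values stand in the order BPTES replicate 1, BPTES replicate 2, DMSO replicate 1 and DMSO replicate 2. In such sums, fewer cells with a transcript and less RNA per cell cannot be told apart.

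The label neutrophil was compared with markers and with the genes that led the population. In neutrophils of up to 20000 UMIs, the 4 neutrophil markers S100a8, S100a9, Csf3r and Retnlg, summed to between 52675 and 83820 CPM in each library. All 4 were used by the rule, so this sum is fixed by the choice of cells and is no check of the label. Among genes that the rule did not use, the protease inhibitor gene Stfa2l1 (1 of a family of near-identical stefins between which reads may be split), the whey acidic protein family gene Wfdc21, the lipolysis inhibitor G0s2, the histamine-forming enzyme Hdc, the itaconate-forming enzyme Acod1 and the activating receptor Trem1 had some of the highest ratios to the other leukocytes (124, 100.8, 92.2, 83.0, 79.7 and 55.9). Each ratio divides the neutrophil CPM by the CPM of the other leukocytes plus 1. These ratios describe cells chosen by their expression and were not tested. Markers of T and NK cells summed to at most 9.93 CPM and those of proximal tubule to between 635 and 785 CPM, but the rule bars or caps some genes of both lists, so these sums are no check either. The barcodes over 20000 UMIs were different. Their neutrophil markers summed to only 14431 to 29339 CPM, while monocyte markers summed to between 1120 and 2427 CPM, against 175 to 313 CPM in the smaller barcodes. Dendritic cell markers summed to between 4294 and 6111 CPM, against 223 to 947 CPM. Scrublet, a doublet caller, scored all kept barcodes, and its highest scores were cut at an assumed rate of 0.4% per 1000 barcodes. Of the 37, 32, 25 and 39 barcodes over 20000 UMIs, 3, 1, 9 and 4 lay past this cut. Whether they hold more than 1 cell was not tested further, and counts of called genes are given for all 937 neutrophils, as the rule has it, and for the 804 of up to 20000 UMIs, a limit set after the values were seen. Levels of single genes are those of the 804 unless all 937 are named.

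**Figure D1:**
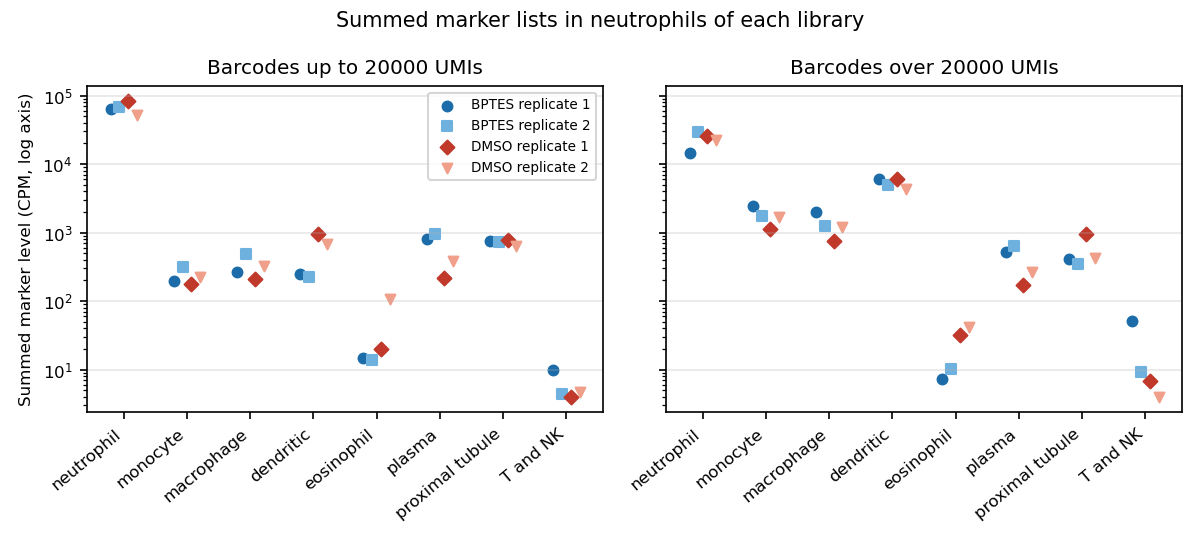
Summed levels of marker lists (CPM, log axis) in the summed neutrophils of each library, for barcodes of up to 20000 UMIs (left) and over 20000 UMIs (right); each point is 1 library. The 4 neutrophil markers, all genes of the rule, stand highest because the cells were chosen by them, and the dendritic, monocyte and macrophage lists are higher on the right.

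The genes that chose the cells varied among libraries, and are described with no test. S100a8 and S100a9, the subunits of calprotectin, an abundant cytosolic protein that binds calcium and zinc, were lowest in DMSO replicate 2. S100a8 stood at 22086 and 25903 CPM under BPTES and 32393 and 21043 CPM under DMSO in neutrophils of up to 20000 UMIs. S100a9 stood at 34522 and 35650.1 CPM under BPTES and 45375 and 28362 CPM under DMSO. Retnlg, a resistin-like secreted protein of neutrophils, was found in 93.1% and 90% of these neutrophils in the BPTES libraries, in 84.8% in DMSO replicate 1 and in 44.9% in DMSO replicate 2. Its level was 4262 and 4168 CPM under BPTES and 3418 and 1549.8 CPM under DMSO. Csf3r, the receptor of the growth factor G-CSF, stood at 2688 and 2423 CPM under BPTES and 2635 and 1721 CPM under DMSO. Cxcr2, the receptor of CXC chemokines that draws neutrophils into tissue, stood at 1131 and 1167 CPM under BPTES and 990.5 and 889 CPM under DMSO. The gelatinase gene Mmp9 stood at 755 and 654 CPM under BPTES and 860.4 and 1041 CPM under DMSO. S100a6 and S100a11, which the rule did not use, were also lowest in DMSO replicate 2, with S100a6 at 3028 and 2923 CPM under BPTES and 3592 and 2481 CPM under DMSO and S100a11 at 4217 and 4024 CPM under BPTES and 3701 and 2378 CPM under DMSO, and none of the 4 genes tested from the list of S100 proteins, which does not hold S100g, was called. For the 6 genes of the rule, DMSO replicate 2 was the lowest library for 5 and the highest for Mmp9. At the edge of the rule, barcodes with 20 to 29 UMIs of S100a8 and S100a9 numbered 2, 1, 2 and 13, and barcodes that met every other condition with 10 to 19 UMIs numbered 4, 6, 0 and 9.

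The share of neutrophils among leukocytes did not differ between the treatments beyond the spread of the libraries. Neutrophils made up 4.99% (225 of 4508; 95% exact binomial interval 4.37% to 5.67%) and 4.99% (212 of 4251; 4.35% to 5.68%) of leukocyte barcodes under BPTES. Under DMSO they made up 4.78% (236 of 4942; 4.20% to 5.41%) and 6.00% (264 of 4397; 5.32% to 6.75%). The intervals cover counting error only. The means were 4.99% ± 0.00288 and 5.39% ± 0.869 (SD, n = 2), a difference of -0.401 percentage points with an exact two-sided permutation p of 1, where the design allows no p below 0.333. Without DMSO replicate 2 the difference was 0.214 percentage points. Without barcodes over 20000 UMIs the shares were 4.17% and 4.23% under BPTES and 4.27% and 5.12% under DMSO. That difference was -0.491 percentage points with an exact permutation p of 0.333, the smallest the design allows.

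Across all 937 neutrophils, 4 of 9640 genes tested (0.0415%) differed between BPTES and DMSO by edgeR's quasi-likelihood test at a Benjamini-Hochberg adjusted p of 0.05. The immunoglobulin light chain gene Igkc rose (log2 fold change 2.24, SE 0.20). The steroid-inactivating enzyme Hsd11b2 of the distal nephron (-5.12, SE 0.40), the calcium-binding protein S100g of the distal tubule (-5.05, SE 0.46) and the galactose-binding lectin Mgl2 of macrophages and dendritic cells (-5.12, SE 0.48) fell, and the edgeR adjusted p was 0.0469 for each of the 4. None of the 4 is a gene known for its expression in neutrophils. Before adjustment, 1014 genes stood under a p of 0.05. DESeq2 called 113 genes (21 higher, 92 lower). No gene passed edgeR's threshold without the barcodes over 20000 UMIs or without those of Scrublet's highest scores. Fits that leave out 1 library are described with the processing.

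The 3 genes that fell owed their counts in DMSO to 1 or 2 barcodes per library. Of the 145 Hsd11b2 UMIs of DMSO replicate 1, 129 came from 1 barcode, as did 189 of the 192 of DMSO replicate 2, against 7 and 2 UMIs in the BPTES libraries. For S100g, 2 barcodes held 1189 and 1058 of the 2275 UMIs of DMSO replicate 1, and 1 barcode held 1488 of the 1523 of DMSO replicate 2, against 79 and 37 UMIs under BPTES. For Mgl2, 2 barcodes held 36 and 17 of 57 UMIs in DMSO replicate 1 and 1 held 85 of 100 in DMSO replicate 2, against 3 and 1 under BPTES. Igkc was spread widely instead. Its 1238, 1276, 263 and 293 UMIs came from 214, 209, 140 and 174 neutrophils, and no barcode held more than 55.

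**Figure D2:**
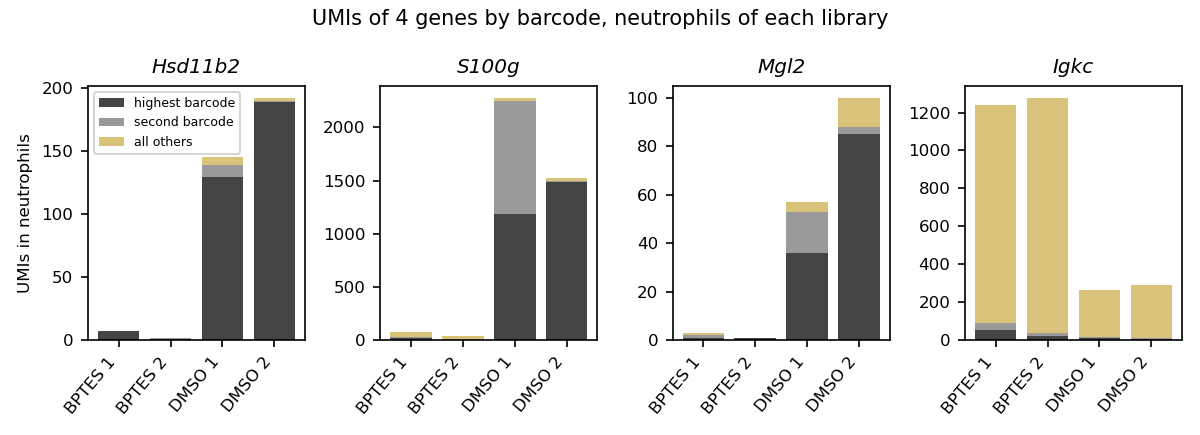
UMIs of Hsd11b2, S100g, Mgl2 and Igkc in the neutrophils of each library (linear axis from 0), divided into the barcode with the most UMIs, the second barcode and all others. For the first 3 genes 1 or 2 barcodes make up most of each DMSO bar, while Igkc comes almost entirely from the other barcodes.

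The 10 genes of higher level with the next smallest p did not pass the threshold. Igfbp5 (log2 fold change -4.13), Igfbp6 (-2.32), Igfbp7 (-2.62), which encode binding proteins of insulin-like growth factors or related factors, and the metallothionein Mt1 (-1.91) were lower in both BPTES libraries. For 3 of these, few barcodes held much of the count in DMSO. For Igfbp5, 2 barcodes held 69 and 68 of the 140 UMIs of DMSO replicate 1 and 176 and 81 of the 273 of DMSO replicate 2, and without the barcodes of Scrublet's highest scores the log2 fold change of Igfbp5 was 0.09. For Igfbp7, 1 barcode held 567 of the 661 UMIs of DMSO replicate 2, and for Mt1, 2 barcodes held 143 and 110 of 462 there. The orphan receptor Gpr141 (1.39), the adhesion receptor Adgre4 (1.25), the sialophorin Spn (1.17), Ccdc88c (1.21), Gm15987 (1.52) and the phosphatase Ptpro (1.57) were higher, with edgeR adjusted p between 0.0829 and 0.17 over the 10. Without Cd74 or immunoglobulin barcodes, which left 53 and 20 neutrophils in the BPTES libraries, 4 of these 6 turned direction, at -0.89 for Adgre4, -0.60 for Spn, -0.85 for Gm15987 and -1.58 for Ptpro. Between 80.4% and 94.7% of the Adgre4 UMIs of a library, 73.4% to 87.1% of those of Spn and 52.4% to 76.3% of those of Gpr141 came from barcodes over 20000 UMIs. Among barcodes of up to 20000 UMIs the 6 genes kept their direction, with edgeR adjusted p between 0.572 and 0.791. Log2 fold changes were 1.77 for Adgre4, 1.49 for Gpr141, 0.94 for Spn, 1.13 for Ccdc88c, 1.45 for Gm15987 and 1.47 for Ptpro. Adgre4 was found there in 4.26% and 9.44% of neutrophils under BPTES and 1.90% and 1.78% under DMSO, so its direction rests on few barcodes. Over all neutrophils, 3 of 6 monocyte markers (50%) stood higher in both BPTES libraries than in either DMSO library, against 21.6% of all genes. Up to 20000 UMIs 1 of 5 (20%) did, against 19.0%, and 0 were lower in this way in either set. The part of monocytes in these values was not tested. In the barcodes of up to 20000 UMIs the log2 fold change was -0.08 for Igfbp7, -2.74 for Igfbp5, -1.23 for Mt1 and -2.12 for Igfbp6, which is described with the other secreted factors. Without barcodes of at least 5 Cd74 UMIs, the values were 1.44 for Adgre4, 1.46 for Gpr141, 1.08 for Spn, 1.19 for Ccdc88c, 1.12 for Gm15987 and 1.14 for Ptpro.

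Among the 804 neutrophils of up to 20000 UMIs (188, 180, 211 and 225), none of 7583 genes (0%) passed the edgeR threshold, and 496 stood under an unadjusted p of 0.05. DESeq2 called 31 (0.409%), of which 5 were higher and 26 lower under BPTES. When DMSO replicate 2 was left out, edgeR called 170 genes, and without DMSO replicate 1 it called 1356, with the single DMSO library assumed to vary like the BPTES pair. The edgeR fit of all 4 libraries called none of the 31 DESeq2 genes. For the 26 lower ones its median log2 fold change was -2.10, and it was -1.75 without DMSO replicate 2. DMSO replicate 2 was the highest library for 20 of the 26 lower genes. The 2 treatments did not overlap, on CPM scaled by TMM factors, for 19.0% of all genes in the higher and 19.8% in the lower direction. Over all 937 neutrophils these shares were 21.6% and 21.3%. The counts without overlap of each gene list below are to be read against these shares over all genes. The genes named from here on are the DESeq2 calls and the first members of each list, and others among them were chosen after their values were seen. Log2 fold changes are those of edgeR in the 804 neutrophils.

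Of the 24 cytokine and chemokine genes tested, 10 (41.7%) were lower and 3 (12.5%) higher without overlap, against 19.8% and 19.0% of all genes. None was called by edgeR, and the median log2 fold change was -0.14 against -0.02 over all genes. With the larger barcodes included, 12 of 27 (44.4%) were lower and 2 (7.41%) higher without overlap, with a median of -0.33. The alarmin Il1a was at 44.7 and 24.1 CPM under BPTES and 105 and 575 CPM under DMSO. The fit of all 4 libraries gave no edgeR call (log2 fold change -3.22 ± 0.72 SE, adjusted p 0.572 by edgeR), and without DMSO replicate 2 the log2 fold change was -1.64. Il1rn, which encodes the secreted antagonist of the interleukin 1 receptor, was at 258 and 317 CPM under BPTES and 351 and 1551 CPM under DMSO, and without DMSO replicate 2 the log2 fold change was -0.32. DMSO replicate 2 carried most of the distance for Il1rn. Il1a was found in 8.51% and 6.11% of the neutrophils of the BPTES libraries, in 9.005% in DMSO replicate 1 and in 44.9% in DMSO replicate 2. Over all 937 neutrophils its log2 fold change was -2.61 with an edgeR adjusted p of 0.281, and the 224 Il1a UMIs of DMSO replicate 1 came from 22 barcodes, of which 2 held 39 and 36. Il1b, the gene of interleukin 1 beta, was nearly level at 19045 and 17361 CPM under BPTES and 19256 and 21861 CPM under DMSO (log2 fold change -0.13 ± 0.21 SE, adjusted p 0.908 by edgeR). The chemokine gene Ccl3, whose product draws monocytes and neutrophils, was at 173 and 199 CPM under BPTES and 330.3 and 1098 CPM under DMSO. It was among the DESeq2 calls (log2 fold change -1.87 ± 0.47 SE, adjusted p 0.00689 by DESeq2 and 0.673 by edgeR), and without DMSO replicate 2 its value was -0.87. Ccl4, its neighbour in the same chemokine cluster, was at 222 and 246 CPM under BPTES and 439.9 and 1080.0 CPM under DMSO and was called by DESeq2 as well (log2 fold change -1.63 ± 0.37 SE, adjusted p 0.587 by edgeR), and without DMSO replicate 2 the log2 fold change was -0.95. In BPTES replicate 2, 1 barcode held 281 of its 667 UMIs over all neutrophils. Cxcl2, a ligand of Cxcr2 that calls in more neutrophils, was at 10152 and 9045 CPM under BPTES and 10398 and 21931 CPM under DMSO. Only DMSO replicate 2 was apart there, and without it the log2 fold change was -0.15. Tnf, the founding member of its cytokine family, was at 52.4 and 36.2 CPM under BPTES and 65.3 and 141 CPM under DMSO, and without DMSO replicate 2 the log2 fold change was -0.59. The chemokine-binding receptor gene Ccrl2 was at 1130.2 and 1222 CPM under BPTES and 1684 and 3642 CPM under DMSO, and the angiogenic factor gene Vegfa at 79.98 and 82.3 CPM under BPTES and 127 and 185 CPM under DMSO. Both stood higher in each DMSO library than in either BPTES library, with edgeR adjusted p of 0.728 and 0.698, and without DMSO replicate 2 their log2 fold changes were -0.55 and -0.68.

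**Figure D3:**
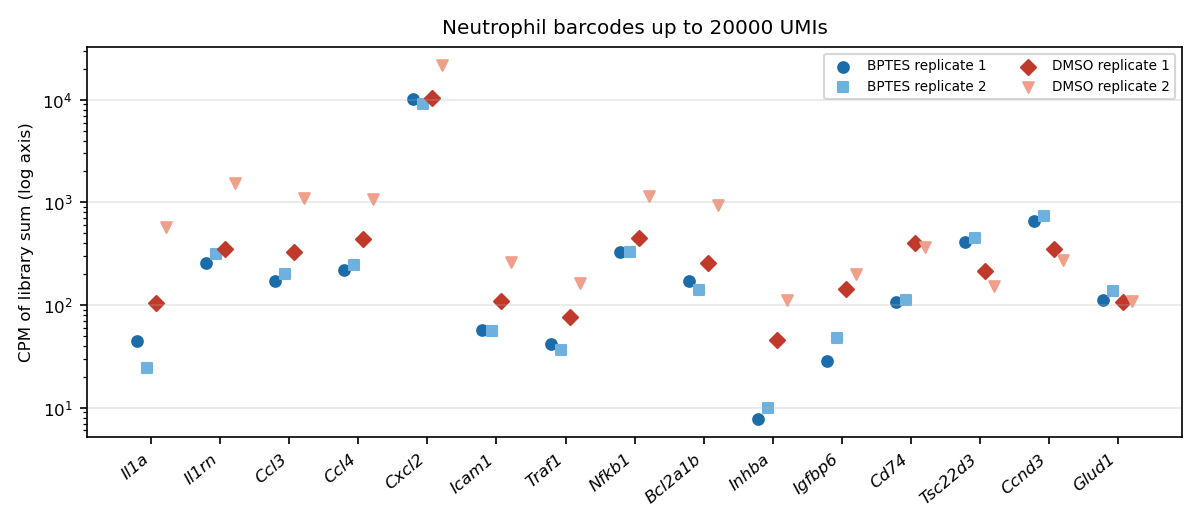
CPM (log axis) of 15 genes in the summed neutrophils of up to 20000 UMIs, 1 point per library. DMSO replicate 2 is the highest point for the cytokine and NF-kB genes plotted, DMSO replicate 1 lies between it and the BPTES pair for Il1a, Ccl3, Ccl4, Icam1, Traf1 and Inhba, Tsc22d3 and Ccnd3 are highest in the BPTES pair, and Glud1 is nearly level.

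NF-kB is a family of dimeric transcription factors that switches on cytokine, adhesion and survival genes, and many of its targets encode its own inhibitors. Of the 24 genes of its subunits and feedback tested, 14 (58.3%) were lower and 3 (12.5%) higher without overlap, against 19.8% and 19.0% of all genes. None was called by edgeR, and the median log2 fold change was -0.27. In all 937 neutrophils, 14 of 24 (58.3%) were lower and 1 (4.17%) higher without overlap, with a median of -0.30. The adhesion molecule gene Icam1 was at 56.8 and 55.4 CPM under BPTES and 111 and 264 CPM under DMSO. DESeq2 called it (log2 fold change -1.68 ± 0.37 SE, adjusted p 0.572 by edgeR and 0.0178 by DESeq2), and without DMSO replicate 2 the log2 fold change was -1.01. Traf1, an adaptor of TNF receptors, was at 41.4 and 36.2 CPM under BPTES and 77.2 and 163 CPM under DMSO (log2 fold change -1.57 ± 0.35 SE, adjusted p 0.572 by edgeR and 0.0443 by DESeq2), and without DMSO replicate 2 the log2 fold change was -1.03. Nfkb1, which encodes the precursor of the p50 subunit, was at 331 and 328 CPM under BPTES and 453 and 1166 CPM under DMSO, and without DMSO replicate 2 the log2 fold change was -0.50. The other subunits stood closer together, with log2 fold changes of -0.24 (SE 0.25) for Nfkb2, -0.32 (SE 0.21) for Rel and 0.10 (SE 0.23) for Rela. The mitochondrial superoxide dismutase gene Sod2 was at 55.2 and 58.2 CPM under BPTES and 87.2 and 227 CPM under DMSO, and Ikbke, a kinase upstream of interferon and NF-kB signals, at 3.86 and 5.49 CPM under BPTES and 15.4 and 50.5 CPM under DMSO. Without DMSO replicate 2 the log2 fold change was -0.66 for Sod2 and -1.75 for Ikbke. Over all 937 neutrophils that of Ikbke was -1.36 with an edgeR adjusted p of 0.368.

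As most of these genes stood highest in DMSO replicate 2, the promoters of Cxcl2, Il1a, Il1b, Il1rn, Tnf, Ccl3, Icam1, Traf1, Bcl2a1b and Inhba in RefSeq (GRCm38.p6, 250 bases before to 50 after the start, 300 in all) were searched for the NF-kB consensus on both strands. Among them a match was found in the Cxcl2 promoter, where it fits the consensus on both strands and begins at -97 relative to the start. Over all 32851 promoters of that length, 8.46% held a match. The Cxcl2 promoter is shown since its gene has the highest chemokine level in these cells; it lies at chr5:90903649-90903948 on the plus strand of GRCm38.p6, and the capitals mark the match.
Cxcl2 promoter: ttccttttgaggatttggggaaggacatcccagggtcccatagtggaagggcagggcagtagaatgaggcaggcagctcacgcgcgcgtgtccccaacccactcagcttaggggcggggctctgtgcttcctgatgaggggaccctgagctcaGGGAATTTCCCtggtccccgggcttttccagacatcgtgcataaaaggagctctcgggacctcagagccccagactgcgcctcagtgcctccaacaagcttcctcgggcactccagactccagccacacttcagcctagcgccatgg
No match in the other promoters says only that these letters are not in these windows, and a match is not a measured binding site.

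Survival and death genes were mixed. Mcl1, the short-lived protein on which neutrophil survival depends, was level at 2383 and 2141 CPM under BPTES and 2089 and 2664 CPM under DMSO (log2 fold change -0.03 ± 0.22 SE, adjusted p 0.988 by edgeR). Bcl2a1b, a relative of Mcl1 that NF-kB induces, was at 172 and 139.9 CPM under BPTES and 258 and 935 CPM under DMSO and was called by DESeq2 (log2 fold change -1.86 ± 0.51 SE, adjusted p 0.702 by edgeR; DESeq2 adjusted p 0.0142). Bcl2a1a was at 55.2 and 46.1 CPM under BPTES and 83.7 and 366 CPM under DMSO and was also called, and Bcl2a1d, which was not called, was at 45.8 and 50.5 CPM under BPTES and 62.8 and 207 CPM under DMSO. Without DMSO replicate 2 the log2 fold change was -0.76 for Bcl2a1b, -0.76 for Bcl2a1a and -0.42 for Bcl2a1d. The Bcl2a1 genes are near-identical copies between which reads may be split or lost, so their separate values are uncertain. Bcl2l11, which encodes the death-promoting protein BIM, was at 253 and 213 CPM under BPTES and 237 and 327 CPM under DMSO, within the spread of the libraries. Of the 24 survival and apoptosis genes tested, 6 (25%) were lower and 4 (16.7%) higher without overlap, against 19.8% and 19.0% of all genes. Among all 937 neutrophils, 8 of 24 (33.3%) were lower and 5 (20.8%) higher without overlap, with a median of -0.11.

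Several other secreted factors and receptors were among the DESeq2 calls. Inhba, which encodes the subunit of activin A, was at 7.72 and 9.88 CPM under BPTES and 45.8 and 113 CPM under DMSO (log2 fold change -3.10 ± 0.46 SE, adjusted p 0.273 by edgeR; DESeq2 adjusted p 1.27e-05). The 31 DESeq2 genes were picked from these same libraries, so edgeR fits that leave out 1 library are no separate check of them. The counts of Inhba came from few barcodes. Over all 937 neutrophils, the BPTES libraries held 17 and 18 Inhba UMIs in 7 and 8 barcodes, DMSO replicate 1 held 96 in 17 barcodes, with 26 and 24 in 2 of them, and DMSO replicate 2 held 470 in 41, with 136 and 73 in 2. The log2 fold change over all 937 was -3.82 with an edgeR adjusted p of 0.179. Igfbp6 was at 28.7 and 47.7 CPM under BPTES and 144 and 199.8 CPM under DMSO (log2 fold change -2.12 ± 0.31 SE, adjusted p 0.262 by edgeR and 4.12e-05 by DESeq2), and without DMSO replicate 2 the log2 fold change was -1.95. Both DMSO libraries stood above both BPTES libraries by more than either pair differed within itself. The growth factor gene Hbegf was at 2.76 and 6.04 CPM under BPTES and 8.47 and 79.1 CPM under DMSO, and much of its distance rested on DMSO replicate 2 (log2 fold change -0.97 without it). Among receptors, Gpr84, which senses medium-chain fatty acids, was at 6.62 and 7.13 CPM under BPTES and 22.9 and 85.2 CPM under DMSO, the lectin receptor gene Clec5a at 53.5 and 49.4 CPM under BPTES and 85.7 and 288 CPM under DMSO, and the leukotriene receptor gene Cysltr1 at 3.31 and 1.65 CPM under BPTES and 16.4 and 46.8 CPM under DMSO. Each was lowest in the BPTES pair and highest in DMSO replicate 2, and without that library the log2 fold changes were -1.76, -0.77 and -2.73 in that order. Of the 51 Gpr84 UMIs of DMSO replicate 1 over all neutrophils, 17 and 12 came from 2 barcodes, and over all 937 neutrophils the log2 fold change of Cysltr1 was -2.55 with an edgeR adjusted p of 0.182. The lipid droplet protein gene Hilpda, which hypoxia induces, was at 22.1 and 26.3 CPM under BPTES and 50.8 and 147 CPM under DMSO, and the cholesterol exporter gene Abca1 at 45.2 and 56.5 CPM under BPTES and 76.7 and 303 CPM under DMSO. Without DMSO replicate 2 their log2 fold changes were -1.10 and -0.63. The remaining lower calls were Trio, Tmcc3, Ckap2l, Hdac9, Scimp, 1110002J07Rik, Gclc and the class II genes described with the populations.

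Granule genes of immature neutrophils ranged from no UMI to the 26.7 CPM of Ltf in DMSO replicate 2. No UMI of Elane or Ctsg, the azurophil proteases of immature cells, was counted among 11962409 neutrophil UMIs, which allows up to 0.251 CPM. Mpo stood at 1.10 and 0 CPM under BPTES and 0.498 and 1.40 CPM under DMSO. The specific granule gene Camp stood at 0.552 and 0 CPM under BPTES and 0.996 and 0.468 CPM under DMSO, Ltf (lactoferrin) at 17.1 and 10.4 CPM under BPTES and 14.4 and 26.7 CPM under DMSO, and Ngp at 13.2 and 12.6 CPM under BPTES and 17.4 and 3.28 CPM under DMSO. Ltf was found, before thinning, in 6.67%, 5.66%, 6.36% and 14.02% of all neutrophils of the 4 libraries, against at most 0.141% of proximal tubule barcodes, and after thinning to 1000 UMIs in 1.33%, 0.472%, 0.847% and 2.65%. Lcn2, the iron-withholding lipocalin that mature neutrophils still transcribe, was at 617 and 665 CPM under BPTES and 964 and 784 CPM under DMSO. The gelatinase granule gene Mmp8 was at 252 and 205 CPM under BPTES and 225 and 107 CPM under DMSO, lowest in DMSO replicate 2, and without DMSO replicate 2 the log2 fold change was -0.01. Of the 16 specific and gelatinase granule genes tested, 2 (12.5%) were higher and 3 (18.8%) lower without overlap, against 19.0% and 19.8% of all genes. Their median log2 fold change was 0.22, with no call. With the larger barcodes included, 3 of 17 (17.6%) were lower and 2 (11.8%) higher without overlap, with a median of 0.11.

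Among receptors, Cxcr4 stood higher under BPTES without passing the test. Cxcr4, the receptor that holds neutrophils in marrow and returns on aged cells, was at 482 and 482 CPM under BPTES and 353 and 363 CPM under DMSO (log2 fold change 0.46 ± 0.21 SE, adjusted p 0.763 by edgeR). The endotoxin co-receptor gene Cd14 was at 1304 and 1275 CPM under BPTES and 1289 and 3427 CPM under DMSO, and without DMSO replicate 2 the log2 fold change was -0.04. Of 40 receptor genes tested, 8 (20%) were higher and 14 (35.0%) lower without overlap, against 19.0% and 19.8% of all genes. Their median was -0.14, with no call. In all 937 neutrophils, 13 of 42 (30.95%) were lower and 9 (21.4%) higher without overlap, with a median of -0.13. In the oxidase that makes superoxide, Ncf1 was at 439 and 371 CPM under BPTES and 435 and 721 CPM under DMSO and Cyba at 568 and 582 CPM under BPTES and 570.0 and 605 CPM under DMSO. Of its 7 genes tested, 3 (42.9%) were lower and 0 higher without overlap, against 19.8% and 19.0% of all genes, and the median was 0.00. Among all 937 neutrophils, 2 of 8 (25%) were lower and 3 (37.5%) higher without overlap, with a median of -0.03.

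Among genes of glutamine and glutamate use, none was called by edgeR. Gls2, the liver-type glutaminase, gave 1 UMI in BPTES replicate 1 and 0 in the other 3 libraries. Glutamate dehydrogenase Glud1 was at 112 and 138 CPM under BPTES and 106 and 110.4 CPM under DMSO, and glutamine synthetase Glul at 30.9 and 40.6 CPM under BPTES and 31.4 and 21.99 CPM under DMSO. Gclc, the catalytic subunit of the enzyme that joins glutamate to cysteine for glutathione, was at 12.1 and 10.97 CPM under BPTES and 22.9 and 94.99 CPM under DMSO and was a DESeq2 call (adjusted p 0.0443), with a log2 fold change of -1.02 without DMSO replicate 2. Of the 235 Gclc UMIs of DMSO replicate 2 over all neutrophils, 116 came from 1 barcode, and over all 937 neutrophils the log2 fold change was -0.85 with an edgeR adjusted p of 0.514. Slc7a11, which exports glutamate in exchange for cystine, was at 1569.8 and 1408 CPM under BPTES and 1643 and 2300.4 CPM under DMSO. Chac1, an ATF4 target that degrades glutathione, was at 34.2 and 28.5 CPM under BPTES and 19.4 and 9.83 CPM under DMSO (log2 fold change 1.12 ± 0.43 SE, adjusted p 0.750 by edgeR), and Ddit3, which encodes the stress factor CHOP, at 96.5 and 74.1 CPM under BPTES and 61.3 and 78.1 CPM under DMSO. Of the 22 glutamine, glutamate and amino acid stress genes tested, 7 (31.8%) were higher and 2 (9.09%) lower without overlap, against 19.0% and 19.8% of all genes. None was called, and the median was 0.13. With the larger barcodes included, 3 of 23 (13.04%) were lower and 6 (26.1%) higher without overlap, with a median of 0.08. Of 29 genes of glycolysis and hypoxia, 3 (10.3%) were higher and 4 (13.8%) lower without overlap, again against 19.0% and 19.8% of all genes, with a median of -0.11. In all 937 neutrophils, 6 of 29 (20.7%) were lower and 1 (3.45%) higher without overlap, with a median of -0.12. Slc2a1, the glucose transporter, was at 264 and 261 CPM under BPTES and 209 and 331 CPM under DMSO, and Hif1a at 244 and 229 CPM under BPTES and 253 and 338 CPM under DMSO. None of the 13 mitochondrially encoded genes was without overlap in either direction in the 804 (median 0.22) or in all 937 (median -0.03).

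Tsc22d3 and Ccnd3 stood higher under BPTES. Tsc22d3, the glucocorticoid-induced leucine zipper, was at 412 and 447 CPM under BPTES and 213 and 153 CPM under DMSO (log2 fold change 1.26 ± 0.27 SE, adjusted p 0.572 by edgeR and 0.0278 by DESeq2), and without DMSO replicate 2 the log2 fold change was 0.98. The cyclin gene Ccnd3 was at 651 and 729 CPM under BPTES and 352 and 276 CPM under DMSO (log2 fold change 1.17 ± 0.25 SE, adjusted p 0.572 by edgeR and 0.0333 by DESeq2), and without DMSO replicate 2 the log2 fold change was 0.94. In both, each BPTES library stood above each DMSO library by more than either pair differed within itself. Both also stood higher under BPTES in other myeloid cells. Tsc22d3 was at 257 and 316 CPM under BPTES and 109.6 and 119.9 CPM under DMSO in monocytes and at 127 and 148 CPM under BPTES and 56.5 and 82.7 CPM under DMSO in macrophages. Ccnd3 was at 355 and 478 CPM under BPTES and 239 and 272 CPM under DMSO in monocytes and at 293 and 430.3 CPM under BPTES and 157 and 154 CPM under DMSO in macrophages. The difference in response from monocytes was -0.08 (SE 0.26, edgeR adjusted p 0.971) for Tsc22d3 and 0.37 (SE 0.26, edgeR adjusted p 0.807) for Ccnd3 on the log2 scale. Of 18 granulocyte transcription factor genes, 7 (38.9%) were higher and 3 (16.7%) lower without overlap, against 19.0% and 19.8% of all genes, with a median of 0.13. Among all 937 neutrophils, 5 of 19 (26.3%) were lower and 3 (15.8%) higher without overlap, with a median of 0.14. Cebpb, which drives granulocyte genes under stress, was at 4184 and 4087 CPM under BPTES and 3543 and 4169 CPM under DMSO, and Cebpd at 288 and 328 CPM under BPTES and 252 and 168 CPM under DMSO. Of 31 immediate early and dissociation genes, 12 (38.7%) were higher and 6 (19.4%) lower without overlap, beside the same 19.0% and 19.8% of all genes. Their median was 0.08, with no call. With the larger barcodes included, 6 of 32 (18.8%) were lower and 14 (43.8%) higher without overlap, with a median of 0.14. Fos was at 3001 and 2546 CPM under BPTES and 2521 and 2116 CPM under DMSO.

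Some markers of other cell types differed between the treatments in the 804 neutrophils. The 6 plasma cell markers summed to 812 and 941 CPM under BPTES and 215 and 385 CPM under DMSO. Of the 4 tested, 3 (75%) were higher without overlap, against 19.0% of all genes. Xbp1, 1 of the 6, was not higher, at 64.5 and 84.5 CPM under BPTES and 75.7 and 264 CPM under DMSO. Mzb1 and Tnfrsf17 stood at no more than 2.19 CPM. Igkc was at 512 and 531 CPM under BPTES and 114 and 106 CPM under DMSO in neutrophils (log2 fold change 2.28 ± 0.23 SE, adjusted p 0.0534 by edgeR) and at 250.2 and 374 CPM under BPTES and 59.9 and 58.3 CPM under DMSO in proximal tubule barcodes, which make no immunoglobulin. The heavy chain gene Igha was at 193 and 264 CPM under BPTES and 16.9 and 8.42 CPM under DMSO in neutrophils (log2 fold change 4.20 ± 0.40 SE, adjusted p 0.0534 by edgeR) and 95.5 and 195 CPM under BPTES and 11.7 and 4.96 CPM under DMSO in proximal tubule. Among the other leukocytes Igkc stood at 41192 and 59853 CPM under BPTES and 5400.4 and 8130.2 CPM under DMSO. The 8 dendritic cell markers summed to 251 and 223 CPM under BPTES and 947 and 691 CPM under DMSO. All 4 tested (100%), Cd74, H2-Aa, H2-Ab1 and H2-Eb1, were lower under BPTES without overlap, against 19.8% of all genes. They were also DESeq2 calls. The dendritic cell genes Flt3, Clec9a, Cd209a and Ccr7 stood between 0 and 3.49 CPM. Cd74, the invariant chain of MHC class II, was at 108 and 111 CPM under BPTES and 402 and 372 CPM under DMSO (log2 fold change -1.79 ± 0.23 SE, adjusted p 0.160 by edgeR; DESeq2 adjusted p 1.27e-05). Over all 937 neutrophils Cd74 was at 1223 and 875 CPM under BPTES and 949.8 and 993 CPM under DMSO, where the groups overlap (log2 fold change 0.11 with an edgeR adjusted p of 0.889), and between 69.1% and 94.7% of its UMIs lay in barcodes over 20000 UMIs. There, 1 of 7 dendritic cell markers tested (14.3%) was lower without overlap, against 21.3% of all genes, and their median log2 fold change was 0.01. In proximal tubule barcodes Cd74 was at 39.8 and 39.3 CPM under BPTES and 89.2 and 102 CPM under DMSO. The part of RNA from other cells in the results for immunoglobulin and class II genes, and in those for the cytokine and NF-kB genes that moved in the same direction as the class II genes, was not tested.

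**Figure D4:**
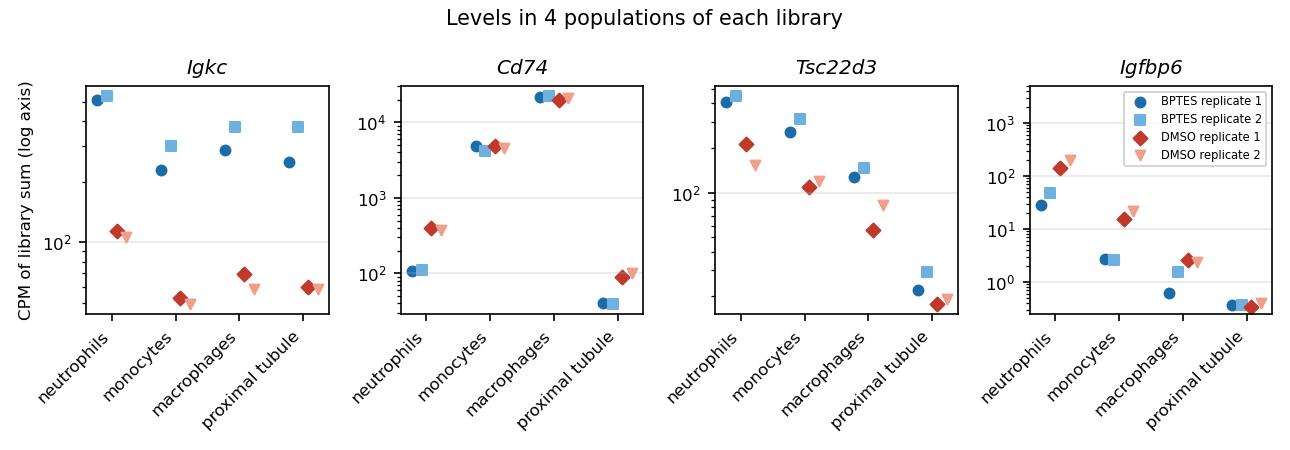
CPM (log axes) of Igkc, Cd74, Tsc22d3 and Igfbp6 in neutrophils of up to 20000 UMIs, monocytes, macrophages and proximal tubule barcodes, 1 point per library. Igkc stands higher in both BPTES libraries in all 4 populations, Cd74 is lower under BPTES in neutrophils and proximal tubule, Tsc22d3 is higher under BPTES in all 4 populations, and Igfbp6 is highest in the DMSO neutrophils.

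Cxcl2, highest in DMSO replicate 2 among neutrophils, was also highest there among monocytes, of which only 35 met their rule against 93, 132 and 99 in the other libraries. Cxcl2 was at 246 and 172 CPM under BPTES and 390.1 and 1527 CPM under DMSO in monocytes. Il1b, nearly level in neutrophils, was at 672 and 567 CPM under BPTES and 940.0 and 2365 CPM under DMSO in monocytes and in macrophages at 995 and 1162 CPM under BPTES and 987 and 1301 CPM under DMSO. Igfbp6 was at 2.74 and 2.59 CPM under BPTES and 15.1 and 22.2 CPM under DMSO in monocytes and at most 2.63 CPM in macrophages. Inhba was at 1.17 and 0.863 CPM under BPTES and 0.738 and 19.3 CPM under DMSO in monocytes, where DMSO replicate 1 was not above the BPTES pair.

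Neutrophils of DMSO replicate 2 also differed in how Retnlg was distributed among cells. Among neutrophils of up to 20000 UMIs, 26 of 188 (13.8%; exact interval 9.24% to 19.6%) in BPTES replicate 1 and 28 of 180 (15.6%; 10.6% to 21.7%) in BPTES replicate 2 held at most 2 Retnlg UMIs. In DMSO replicate 1 they were 53 of 211 (25.1%; 19.4% to 31.5%) and in DMSO replicate 2 144 of 225 (64.0%; 57.4% to 70.3%). The median depth of these cells, between 7736 and 9522 UMIs, was close to that of cells with at least 10 Retnlg UMIs, between 8833 and 9456. The intervals cover counting error only. Between 22 and 39 cells per library held 1 to 5 Retnlg UMIs and so lay near the limit, which was chosen after the values were seen.

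In all 4 libraries, the cells with few Retnlg UMIs stood higher in Icam1, Il1a, Ccl3 and Siglecf than those with many. Icam1 was at 172 and 117 CPM under BPTES and 284 and 326 CPM under DMSO in cells with at most 2 Retnlg UMIs and at 42.1 and 42.9 CPM under BPTES and 60.2 and 117 CPM under DMSO in cells with at least 10. Il1a was at 135 and 124 CPM under BPTES and 277 and 787 CPM under DMSO in the former and at 34.6 and 5.17 CPM under BPTES and 73.3 and 126 CPM under DMSO in the latter. Ccl3 was at 973 and 655 CPM under BPTES and 679.5 and 1535 CPM under DMSO against 61.7 and 117 CPM under BPTES and 182 and 375 CPM under DMSO. For these 3 genes, DMSO replicate 2 had the highest CPM within either class. In CPM, both DMSO libraries stood above both BPTES libraries for Il1a and Icam1 in either class. In shares of cells with a UMI they did not. Of cells with few Retnlg UMIs, 30.8% and 21.4% under BPTES and 24.5% and 56.9% under DMSO held Il1a. For Icam1 these shares were 42.3% and 28.6% under BPTES and 35.8% and 59.0% under DMSO. Of cells with many Retnlg UMIs, 4.83% and 3.79% under BPTES and 5.08% and 16.1% under DMSO held Il1a. In the 17 to 40 cells per library with 3 to 9 Retnlg UMIs Icam1 was at 32.1 and 46.9 CPM under BPTES and 67.9 and 266 CPM under DMSO, Il1a at 8.03 and 0 CPM under BPTES and 0 and 412 CPM under DMSO and Ccl3 at 112 and 46.9 CPM under BPTES and 404 and 181 CPM under DMSO. There DMSO replicate 2 was highest for Icam1 and Il1a and DMSO replicate 1 for Ccl3, and DMSO replicate 1 was not above the BPTES pair for Il1a. Cd74 was at 265 and 147 CPM under BPTES and 1379 and 438 CPM under DMSO in cells with at most 2 Retnlg UMIs and at 87.5 and 90.9 CPM under BPTES and 113 and 288 CPM under DMSO in cells with at least 10. Siglecf, a lectin of eosinophils that some tissue neutrophils also carry, was at 41.9 and 50.1 CPM under BPTES and 45.5 and 146 CPM under DMSO against 8.82 and 3.70 CPM under BPTES and 8.24 and 22.7 CPM under DMSO. S100a8, a gene of the rule, ran the other way, at 11816 and 13106 CPM under BPTES and 16181 and 13586 CPM under DMSO in cells with few Retnlg UMIs and 24488 and 30189.9 CPM under BPTES and 40750.1 and 39199.5 CPM under DMSO in cells with many. Cxcl2 was at 17545 and 11255 CPM under BPTES and 13074 and 21762 CPM under DMSO in cells with few Retnlg UMIs and at 9271 and 8357 CPM under BPTES and 9479 and 23179 CPM under DMSO in cells with many, so it was higher in the former in every library but DMSO replicate 2. The classes are ranges of 1 gene's count, not cell types, and Retnlg was itself used by the rule.

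**Figure D5:**
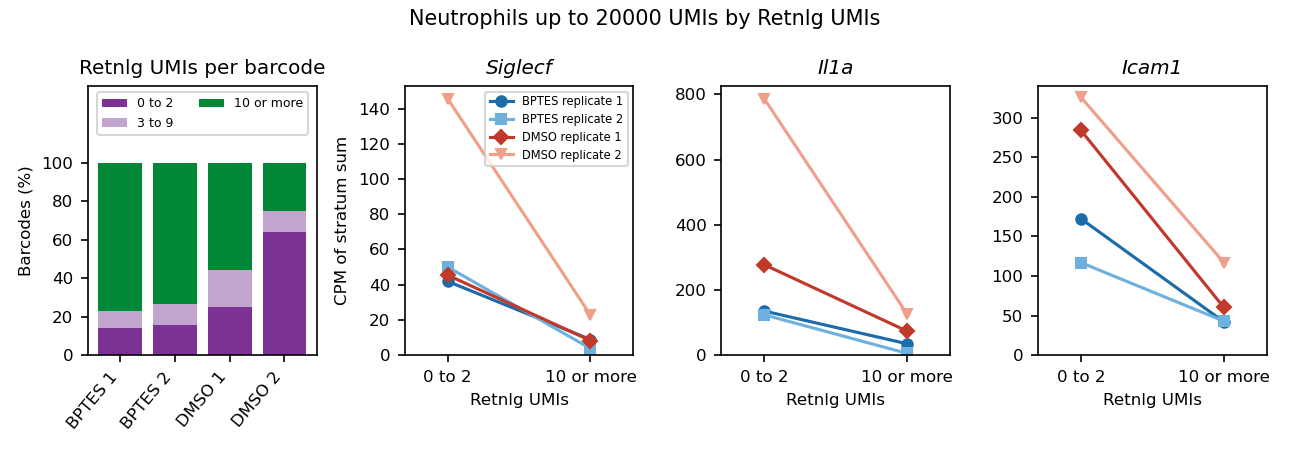
Left, share of neutrophils of up to 20000 UMIs (%) with 0 to 2, 3 to 9, or 10 or more Retnlg UMIs in each library. The other panels give CPM (linear axes from 0) of Siglecf, Il1a and Icam1 summed over cells with 0 to 2 and with 10 or more Retnlg UMIs, each line 1 library. DMSO replicate 2 has the largest share of cells with few Retnlg UMIs, and all 3 genes are higher in those cells in every library.

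Shares of cells with a transcript were compared after each of the 937 neutrophils was thinned to 1000 UMIs, which left out no neutrophil. Siglecf was then found in 0.444% (1 of 225), 2.36% (5 of 212), 1.69% (4 of 236) and 7.58% (20 of 264) of neutrophils, and in at most 0.0214% of proximal tubule barcodes. Before thinning, these shares were 9.78%, 8.49%, 12.3% and 39.4%. The other eosinophil markers Prg2, Epx, Ccr3 and Il5ra stood between 0 and 2.81 CPM in each library, with the highest value that of Ccr3 in DMSO replicate 2, and the part of eosinophils in the Siglecf values was not tested. Icam1 was found in 3.56%, 5.19%, 6.78% and 16.7% of thinned neutrophils, against 0.484% to 1.32% of proximal tubule barcodes. Il1rn was found in 20%, 15.6%, 18.2% and 39.8%, and Cxcr4 in 40%, 36.8%, 25.8% and 27.3%. Il1b was found in 97.3% to 100% of thinned neutrophils in each library.

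Whether neutrophils answered the treatment differently from other myeloid cells was tested by an interaction of cell type and treatment over the 4 libraries. Against 359 monocytes, 3 of 10716 genes (0.028%) differed in response by edgeR. These were S100g (-6.33, SE 0.46, edgeR adjusted p 0.00457), the endothelial diaphragm gene Plvap (-6.01, SE 0.53, 0.0111) and the adhesion molecule gene Cadm1 (-5.31, SE 0.52, 0.0153). Of 62 Plvap UMIs of DMSO replicate 1, 31 and 24 came from 2 barcodes, and of 41 in DMSO replicate 2, 31 came from 1. Cadm1 had 6, 5, 96 and 15 UMIs in 4, 5, 17 and 10 barcodes, with at most 20 in 1 barcode. Against 3018 macrophages, 2 of 13419 genes (0.0149%) differed in response. Apoe, the lipid carrier of macrophages, had a difference of 2.13 (SE 0.19, edgeR adjusted p 0.0451), and between 60.4% and 86.0% of its neutrophil UMIs lay in barcodes over 20000 UMIs. These neutrophil UMIs numbered 2706 and 1972 under BPTES and 767 and 1793 under DMSO. Its macrophage levels are not given here, so the part of each population in the difference was not separated. The integrin gene Itga9 had a difference of -3.33 (SE 0.29, edgeR adjusted p 0.0451), where 24 of 54 UMIs of DMSO replicate 1 and 47 of 66 of DMSO replicate 2 came from 1 barcode each. Without neutrophil barcodes over 20000 UMIs, 4 genes differed from monocytes and 0 from macrophages. For the interleukin 1 and NF-kB genes the difference in response from monocytes was 0.31 (SE 0.94, edgeR adjusted p 0.971) for Il1a and -0.97 (SE 0.22, edgeR adjusted p 0.375) for Icam1 on the log2 scale.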

How the data were processed

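Cells were collected with the 10x Genomics GEM-X 3' kit, and the authors deposited 1 matrix of raw UMI counts per library, which the submitters' processing notes tie to Cell Ranger 8.0.1 and mm10. The annotation is not given in the sources used here. The deposited counts, over 31054 features, were not normalized and hold between 17907 and 20091 barcodes per library.

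The rule of the report was applied to each barcode, and counts were summed per library, since cells are not replicates. The sums were tested with edgeR 4.0.16 (TMM scaling, filterByExpr, robust quasi-likelihood fit, Benjamini-Hochberg adjustment over all genes tested, threshold 0.05) in R 4.3.3, with DESeq2 1.42.0 as an alternative. The interaction models held the library as a block and the cell type. Monocytes held at least 2 Ly6c2 and 10 Lyz2 UMIs, macrophages at least 30 UMIs of C1qa, C1qb and C1qc, and proximal tubule barcodes at least 10 of Lrp2 and Slc34a1. Leukocyte barcodes held at least 1 Ptprc UMI and at most 3 of Lrp2 and Slc34a1, or met the neutrophil rule. Doublets were kept in the main fits, and Scrublet in scanpy 1.11.5 gave an alternative without its highest scores. The scripts were tested on simulated counts.

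Genes were named when past the threshold, otherwise the 10 of smallest p whose average level reached a log2 CPM of 5; the first 4 of each gene list; and the 5 largest of each interaction. Genes of the rule were described only. Some genes that this rule names are not reported here. The limit of 20000 UMIs, the Retnlg classes and the alternatives that leave out barcodes of high depth or of Cd74, or cross the replicate numbers, were chosen after seeing the data. The neutrophil rule and the gene lists were chosen with earlier results of these data known. Alternatives covered the tool, the scaling, the low-count filter, limits of the rule, doublets, barcodes with markers of other cells, the replicate block and each library left out. The replicate numbers of the labels were not taken as pairs: the deviations of same-numbered libraries correlated at 0.0302 over 3877 genes and at 0.124 over 3482 genes in neutrophils of up to 20000 UMIs, with only 2 pairs.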

Additional observations from a re-analysis of the deposited data

Results flagged for a closer look

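The 5 genes whose response to BPTES differed between neutrophils and another myeloid population, by edgeR's test of the interaction, are those in which groups differed. Against monocytes, the log2 difference in response (neutrophils minus monocytes) was -6.333 for S100g, -6.014 for Plvap and -5.306 for Cadm1. Without neutrophil barcodes over 20000 UMIs it was -0.02, -5.84 and -5.22, and edgeR called Plvap and Cadm1 but not S100g. In neutrophils of up to 20000 UMIs, Plvap stood at 4.96 and 3.84 CPM under BPTES and 29.4 and 4.21 CPM under DMSO. DMSO replicate 2 was thus not above BPTES replicate 1. The part of the monocytes in these differences was not separated. Against macrophages the log2 difference was 2.131 for Apoe and -3.33 for Itga9. Without neutrophil barcodes over 20000 UMIs it was 2.06 and -2.13, and neither was called. The part of RNA from other cells in these values was not tested.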

How the results depend on the processing

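The difference in the share of neutrophils among leukocytes (BPTES minus DMSO) ran from -1.015 to 0.2137 percentage points when 1 library was left out. The difference was 0.06745 without neutrophils of at least 5 Cd74 UMIs, divided by the same leukocyte barcodes. The other alternatives kept its direction. Counts of genes called are given next for all neutrophils, for the interactions with monocytes and with macrophages, and for neutrophils of up to 20000 UMIs. DESeq2 called 113, 12, 36 and 31 genes in that order, and edgeR with no low-count filter 591, 161, 126 and 168. Leaving out 1 library gave 0 to 652, 26 to 166, 0 to 237 and 12 to 1356. Without Scrublet's highest scores the first 3 counts were 0. Without neutrophil barcodes over 20000 UMIs they were 0, 4 and 0. Without Cd74 or immunoglobulin barcodes, which left 53 and 20 neutrophils in the BPTES libraries, they were 4, 158 and 176. The macrophage count was 4 at a 25% mitochondrial limit, 0 with at least 50 S100a8 and S100a9 UMIs and 0 without Cd74 barcodes. A replicate block gave 15 calls in all neutrophils and 17 in those of up to 20000 UMIs, and the crossed replicate block 26 and 13. RLE scaling gave 4, 3, 2 and 0 calls, the same as TMM.

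Some log2 fold changes turned direction. S100g was at 1.005 without barcodes over 20000 UMIs, and Igfbp5 at 0.08796 without Scrublet's highest scores. Without Cd74 or immunoglobulin barcodes, Adgre4 was at -0.885, Spn at -0.5956, Gm15987 at -0.8519, Ptpro at -1.579 and the Apoe difference at -0.2651. The cause was not tested. For thinned shares, the difference between treatments (BPTES minus DMSO) at 500 or 2000 UMIs was compared with that at 1000. Of 36 comparisons, 28 moved by no more than the larger SD of a treatment and 8 by more. The shares themselves changed with depth. For Retnlg in BPTES replicate 1 they were 62.2%, 71.1% and 84% at 500, 1000 and 2000 UMIs. With 2 libraries a group, 2747905 to 3372121 neutrophil UMIs each and DMSO replicate 2 apart from the rest, genes at a few UMIs per library and changes that rest on DMSO replicate 2 are the least certain values here.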

Other observations

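Interferon response genes, which neutrophils switch on after type I interferon, were not described above. In the 804 neutrophils of up to 20000 UMIs, 2 of 38 genes tested (5.26%) were higher and 2 (5.26%) lower under BPTES without overlap, against 19.0% and 19.8% of all genes, and the median log2 fold change was 0.02 with no call by edgeR. In all 937 neutrophils, 4 of 43 (9.30%) were lower and 10 (23.3%) higher without overlap, with a median of 0.25. Shares over all genes were 21.6% and 21.3% there. In the 804 neutrophils, Rsad2, the antiviral enzyme viperin, was at 249 and 176 CPM under BPTES and 174 and 45.4 CPM under DMSO. Isg15, a ubiquitin-like modifier, was at 318 and 211 CPM under BPTES and 379 and 154 CPM under DMSO, and Ifit3, which binds viral RNA, at 25.9 and 37.3 CPM under BPTES and 58.8 and 12.2 CPM under DMSO. In each of the 3 genes DMSO replicate 2 was the lowest library.

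Other shares belong in no comparison. Ptgs2, the inducible cyclooxygenase, was found in 60.9%, 57.1%, 61.9% and 59.8% of neutrophils thinned to 1000 UMIs, in the same order of libraries. Cd274, which encodes PD-L1, was found in 22.7%, 20.3%, 16.9% and 21.6% of them.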
